A study of Bos taurus with 33 samples.

Results

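The genes described here encode the extracellular matrix of the bovine endometrium and the proteases that cut it. They were chosen by symbol alone: collagens (COL followed by a digit), laminin chains (LAMA, LAMB, LAMC), fibrillins and fibulins (FBN, FBLN), lysyl oxidases (LOX), matrix metalloproteinases (MMP followed by a digit), the ADAMTS family, the tissue inhibitors of metalloproteinases (TIMP followed by a digit), and FN1, DCN, LUM, BGN, FAP, SPARC and TNC. Of the 9155 genes that the Affymetrix bovine array named by a probe set with a single symbol, 63 met this rule. They had 115 probe sets, and 34 of them had more than 1, in which case the one brightest on average across the arrays was used for the gene.

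The 33 arrays each measured total RNA from the endometrium of 1 Bavarian Simmental heifer whose cycle had been synchronised with cloprostenol. In the first experiment, a lipid extrudate loaded with human interferon alpha (IFNA) was laid on day 14 into the uterine horn next to the corpus luteum in 3 heifers, 3 were given an extrudate free of interferon (placebo), and 3 were given phosphate-buffered saline (PBS). Their uteri were flushed on day 16, and about 6 endometrial biopsies per heifer were then taken from that horn. In the second experiment, heifers were either inseminated with sperm of 1 bull and found pregnant, or given sperm-free supernatant and stayed cyclic, and intercaruncular endometrium was taken at slaughter from 5 pregnant and 5 cyclic heifers on day 12, 3 and 3 on day 15, and 4 and 4 on day 18. Conceptuses were removed before sampling. The tissue came from the distal part of the horn on day 12, the medial part on day 15 and the caudal part on day 18, so day and horn part cannot be told apart. All 9 biopsied uteri were flushed and sampled with biopsy forceps, whereas the slaughtered uteri were opened, after a flush on day 12.

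Fibrillar collagens and their cross-links give the stroma its strength, and fibrillins, fibulins and lysyl oxidases build elastic fibres. Basement membranes under epithelium and around vessels hold collagen IV, laminins and the collagens XV and XVIII. Matrix metalloproteinases, ADAMTS proteases and the serine protease FAP cut or trim these proteins, and TIMPs block metalloproteinases. In cattle the trophoblast elongates and releases interferon tau in the days before attachment, and the intercaruncular endometrium holds the glands, stroma and vessels between the attachment sites.

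Values are log2 signals after robust multi-array averaging, so 1 unit is a doubling of the signal. The labels do not state which arrays were normalised together. The distributions pointed to 4 separate sets, the biopsies and the 3 slaughter days. Their median signals were 6.64 for the biopsies, 6.86 on day 12, 6.50 on day 15 and 7.25 on day 18. Comparisons within a set were therefore made on the values as given, and comparisons between days after quantile normalisation of the 24 slaughter arrays together. The interferon-response genes MX1, MX2, ISG15 and RSAD2 were all higher in IFNA than in placebo biopsies (median log2 difference 4.57) and than in PBS biopsies (4.62), and all higher in pregnant than in cyclic endometrium on day 15 (5.04) and day 18 (4.93), with 0 of 4 called on day 12. The gap between the 3′ and 5′ probe sets of GAPDH, a measure of RNA integrity, averaged 2.38 ± 0.67 log2 units in IFNA, 2.58 ± 1.44 in placebo and 2.67 ± 0.94 in PBS biopsies (SD, n = 3 each), against 0.46 and 0.39 in pregnant and cyclic tissue on day 12 and values between -0.16 and 0.14 on the arrays of days 15 and 18.

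As a check of the tissue, the 10 epithelial markers averaged 8.43 to 9.74 and the 8 stromal markers measured of 10 averaged 8.70 to 9.72 on the arrays. Of the 63 matrix genes, 37 had a mean signal above the median of all probe sets (6.81) and 26 lay below it. Their spread between heifers of a group was wider than usual on this array, with a median pooled SD of 0.23 log2 units for the matrix genes and 0.16 for all genes. A call below means an adjusted p under 0.05 in limma, two-sided, with Benjamini-Hochberg adjustment over all 24016 probe sets. In bulk tissue, fewer cells of a type and less RNA per cell cannot be told apart, and this holds for every difference below.

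**Figure D1:**
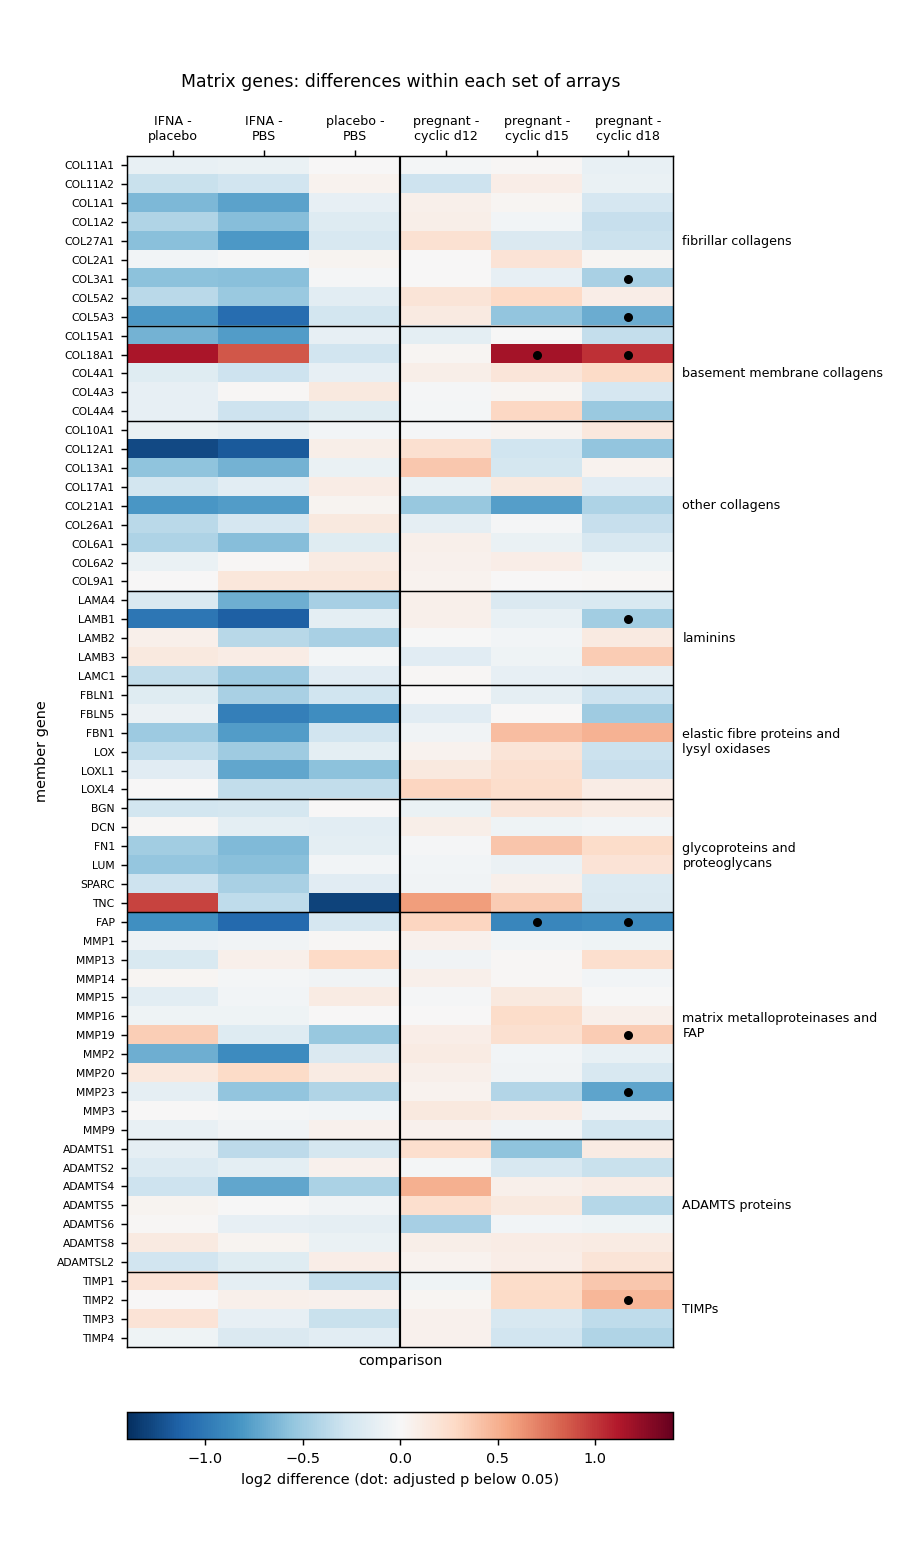
Log2 differences of the 63 matrix genes (down the page, grouped by role) in 6 comparisons within a normalisation set (across), coloured from lower to higher, with a dot where limma's adjusted p was below 0.05. Dots appear on day 15 (2 genes) and day 18 (8 genes) only, while the columns for IFNA are mostly on the lower side.

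Pregnancy on day 18 changed 8 of the 63 matrix genes. COL18A1, MMP19 and TIMP2 rose, and COL3A1, COL5A3, LAMB1, FAP and MMP23 fell, in pregnant relative to cyclic endometrium. These 8 were 12.7% of the matrix genes, while 23% of the 9155 genes were called in either direction, a larger share than among the matrix genes. The median difference was -0.10 over the matrix genes and -0.02 over all genes, and 40 of the 63 differences were below 0.

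COL18A1 encodes the alpha 1 chain of collagen XVIII, a basement membrane proteoglycan whose C-terminal fragment is endostatin. Its log2 signals on day 18 were 7.34, 7.38, 7.57 and 7.34 in pregnant heifers, against 6.47, 6.23, 6.43 and 6.39 in cyclic heifers. The groups did not overlap, and the gap between them was several times the spread inside either. The difference was 1.03 (SE 0.213, 2.04-fold, 95% interval 0.59 to 1.47, adjusted p = 0.00153), and it lay between 0.97 and 1.06 when any 1 heifer was left out. The other basement membrane collagens passed no test on day 18: COL4A1 differed by 0.27 (adjusted p = 0.195), and COL4A3, COL4A4 and COL15A1 also remained uncalled.

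FAP is a membrane-bound serine protease of activated fibroblasts that cleaves denatured collagen. On day 18 its signals were 9.34, 8.98, 9.12 and 8.58 in pregnant heifers, against 9.78, 9.74, 10.09 and 9.98 in cyclic heifers. All 4 pregnant values were below all 4 cyclic values. The difference was -0.89 (SE 0.164, 1.86-fold, 95% interval -1.23 to -0.55, adjusted p = 0.000523).

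Among the 9 fibrillar collagen genes, 2 fell on day 18 and 7 were not called, with a median difference of -0.24. COL3A1, the collagen III chain of reticular fibres, gave 13.23, 12.95, 12.94 and 12.96 in pregnant and 13.36, 13.46, 13.59 and 13.50 in cyclic heifers. The ranges did not overlap although the first pregnant heifer stood above the other pregnant ones. The difference was -0.46 (SE 0.0791, 1.37-fold, adjusted p = 0.000279), and the second COL3A1 probe set was also called lower (-0.53). COL5A3, a chain of collagen V, which helps to set fibril diameter, gave 8.48, 8.07, 8.25 and 8.00 in pregnant and 8.64, 8.98, 8.97 and 8.97 in cyclic heifers. Every pregnant value was below every cyclic value, and the difference was -0.69 (SE 0.143, 1.61-fold, adjusted p = 0.00157). The 2 chains of collagen I, the main fibrillar collagen, were not called: COL1A1 differed by -0.24 (adjusted p = 0.511) and COL1A2 by -0.33 (adjusted p = 0.0804).

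LAMB1, the laminin beta 1 chain, was the single laminin of 5 that was called. Its signals were 9.53, 9.45, 9.14 and 9.16 in pregnant and 9.67, 9.65, 10.05 and 9.87 in cyclic heifers. The ranges were separate but adjacent. The difference was -0.49 (SE 0.15, 1.4-fold, adjusted p = 0.0252). This call was lost without cyclic heifer 3 or 4 or pregnant heifer 3 or 4, where the adjusted p reached 0.0874.

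MMP23 and MMP19 were called in opposite directions. MMP23, a membrane-anchored metalloproteinase that is freed by cleavage, gave 8.70, 9.50, 9.18 and 9.75 in pregnant and 9.97, 10.09, 10.02 and 10.01 in cyclic heifers. The pregnant values were scattered and all lower, while the cyclic values were nearly identical. The difference was -0.74 (SE 0.178, 1.67-fold, adjusted p = 0.00522), with the second probe set also called lower at -0.39. MMP19, which cleaves basement membrane and other matrix components, gave 9.06, 9.20, 8.72 and 8.66 in pregnant and 8.47, 8.49, 8.65 and 8.60 in cyclic heifers. The lowest pregnant value and the highest cyclic value almost touched. The difference was 0.36 (SE 0.114, 1.28-fold, adjusted p = 0.0314), but the second MMP19 probe set differed by -0.07 and was not called, and the call was lost without cyclic heifer 1 or 2 or pregnant heifer 1 or 2. The best known collagenase and gelatinases of the family were not called: MMP1 differed by -0.06, MMP2 by -0.10, MMP9 by -0.26 and the membrane-type MMP14 by -0.04. MMP1 and MMP9 were dim, with mean signals over all arrays of 3.45 and 4.30, so the missing call says little about them.

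TIMP2, which inhibits metalloproteinases and takes part in the activation of pro-MMP2 by MMP14, was the single inhibitor of 4 that was called. Its signals on day 18 were 13.54, 13.85, 13.96 and 13.75 in pregnant and 13.40, 13.34, 13.07 and 13.41 in cyclic heifers, with no overlap. The difference was 0.47 (SE 0.0852, 1.39-fold, adjusted p = 0.000451). The other 2 TIMP2 probe sets differed by 0.01 and 0.03 and were not called, so the rise rests on 1 of 3 probe sets, and the mean over the 3 differed by 0.17 (adjusted p = 0.201). TIMP1 gave 9.81, 10.06, 10.15 and 9.83 in pregnant against 9.51, 9.55, 9.70 and 9.59 in cyclic heifers. These ranges were also separate, but the difference of 0.38 missed the threshold (adjusted p = 0.0666). TIMP3, the matrix-bound inhibitor, differed by -0.35 (adjusted p = 0.199).

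**Figure D2:**
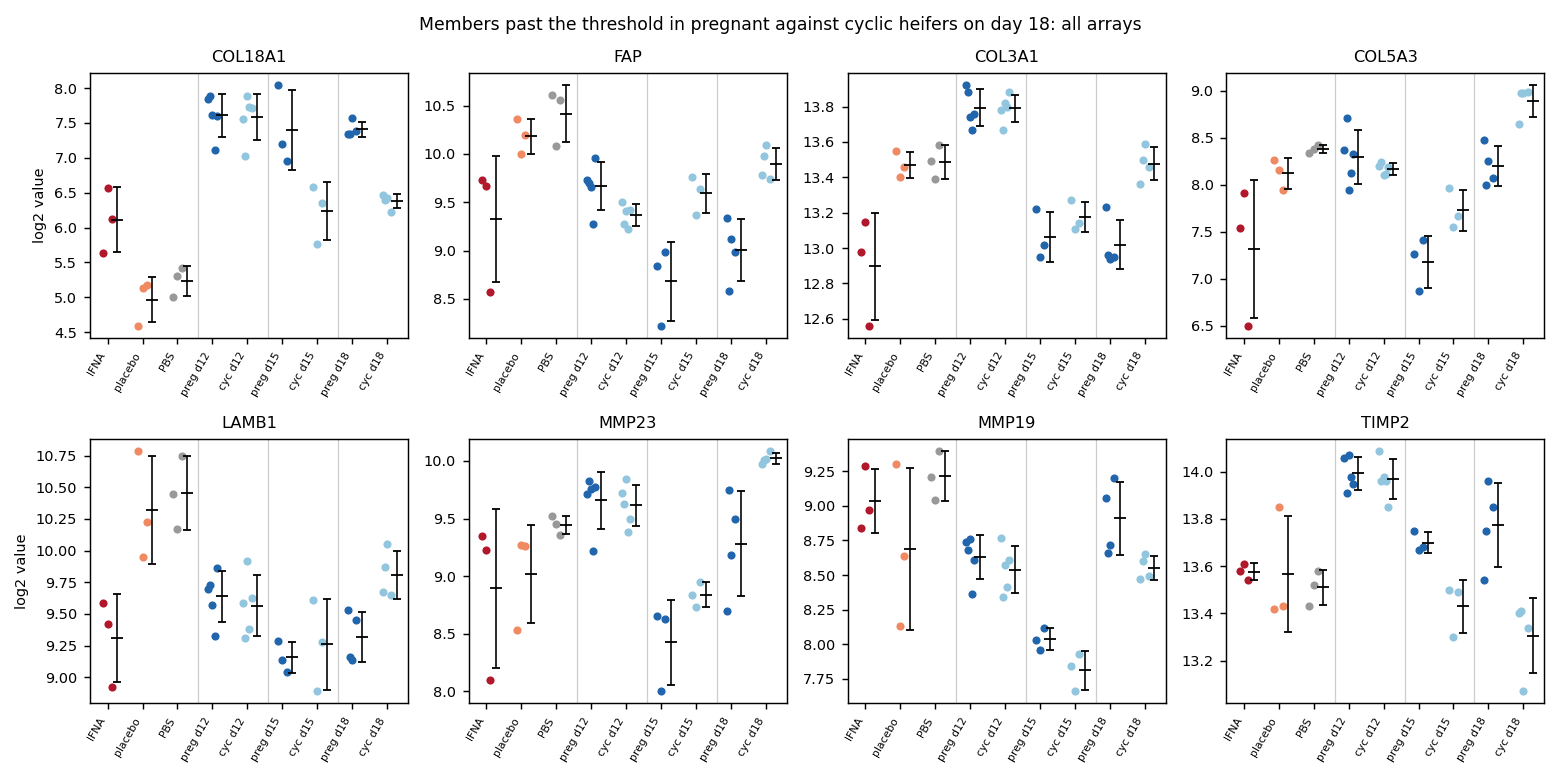
Log2 signals, as given by the authors, of the 8 matrix genes called on day 18, in 9 groups with the tested condition left of its controls; points are heifers and bars mean ± SD. On day 18 the pregnant and cyclic points are separate in every panel, from 7.34 to 7.57 against 6.23 to 6.47 for COL18A1, and levels are comparable only within the biopsies or within a day.

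Elastic fibre genes came close to the threshold in both directions on day 18. FBN1, the fibrillin-1 of microfibrils, gave 10.55, 10.83, 10.59 and 10.61 in pregnant against 10.16, 10.25, 10.11 and 10.10 in cyclic heifers. The groups were separate, and the difference was 0.49 (adjusted p = 0.0577). LOX, which cross-links collagen and elastin, differed by -0.30 (adjusted p = 0.0575), and FBLN1 by -0.28 (adjusted p = 0.147). None of the 6 genes of this group was called, and their median difference was -0.29.

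The glycoproteins and proteoglycans around the fibrils did not pass the test on day 18. FN1, fibronectin, differed by 0.26 (adjusted p = 0.245), SPARC, a collagen-binding matricellular protein, by -0.19, and TNC, tenascin C, by -0.20. The small leucine-rich proteoglycans DCN, LUM and BGN, which coat collagen fibrils, differed by -0.04, 0.19 and 0.12. For DCN, decorin, the pregnant signals of 13.81, 13.68, 13.60 and 13.68 overlapped the cyclic signals of 13.74, 13.74, 13.71 and 13.73. The 7 ADAMTS genes, with the ADAMTS-like ADAMTSL2 among them, had a median difference of 0.10 with none called. They include the aggrecanases and versican-cleaving proteases ADAMTS1 (0.12) and ADAMTS5 (-0.40, adjusted p = 0.0982).

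Markers of other cells moved on day 18 too, where 12.6% of all genes were called higher and 10.4% lower. Of the 7 endothelial markers measured of 8, 4 were lower in pregnant heifers (PECAM1, VWF, KDR and PLVAP), with a list median of -0.64 and mean list levels of 7.63 to 7.86 in pregnant against 7.99 to 8.63 in cyclic heifers. Of the 6 macrophage and dendritic cell markers measured of 8, 4 were higher (CSF1R, C1QA, C1QB and C1QC), with a list median of 0.99 and levels of 9.10 to 9.69 in pregnant against 8.19 to 8.46 in cyclic heifers. Of the 8 stromal markers measured of 10, PDGFRA was called higher and THY1 lower, and mean levels overlapped, at 9.55 to 9.65 in pregnant and 9.45 to 9.72 in cyclic heifers. The part of these cell types in the matrix differences was not tested. Of 10 epithelial markers, CDH1 and CLDN4 were higher and KRT18 lower, of 4 neutrophil markers measured of 6, S100A8 and S100A12 were higher, and none of the 5 trophoblast markers measured of 8 was called.

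On day 15, 2 of the 63 matrix genes were called, which is 3.17%, where 6.38% of all genes were called. They were COL18A1, which rose, and FAP, which fell. COL18A1 gave 8.04, 6.95 and 7.20 in pregnant against 6.58, 6.35 and 5.77 in cyclic heifers. The ranges were separate, with pregnant heifer 1 well above the other pregnant heifers. The difference was 1.16 (SE 0.245, 2.24-fold, 95% interval 0.65 to 1.67, adjusted p = 0.00654), and without pregnant heifer 1 it was 0.84 and no longer called (adjusted p = 0.0568). FAP gave 8.84, 8.98 and 8.22 in pregnant against 9.76, 9.64 and 9.37 in cyclic heifers. Here too the groups were separate, with pregnant heifer 3 lowest. The difference was -0.91 (SE 0.19, 1.88-fold, 95% interval -1.30 to -0.52, adjusted p = 0.00593), and without pregnant heifer 3 it was -0.68 and just missed the threshold (adjusted p = 0.0503). With the 6 day 15 arrays fitted alone, adjusted p was 0.121 for COL18A1 and 0.0807 for FAP.

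Other matrix genes approached the threshold on day 15. ADAMTS1 gave 10.67, 10.52 and 10.41 in pregnant against 11.10, 11.11 and 11.07 in cyclic heifers. The cyclic values were nearly identical and all above the pregnant ones, and the difference was -0.56 (adjusted p = 0.051). COL5A3 differed by -0.55 (adjusted p = 0.0565), TIMP2 by 0.27 (adjusted p = 0.121), FBN1 by 0.43 and FN1 by 0.39. Over the 63 genes, 33 differences were above 0 and 29 below, with a median of 0.01 against -0.02 over all genes. Of the 7 endothelial markers, PECAM1 was called lower on day 15 (list median -0.47, mean levels 6.82 to 7.21 in pregnant and 7.12 to 7.45 in cyclic heifers), and 0 of 6 macrophage markers were called (median 0.33). Of the other lists, 2 of 10 epithelial markers (CDH1 and CLDN4), 1 of 8 stromal markers (PDGFRA) and 1 of 4 neutrophil markers (S100A12) were higher, where 4.04% of all genes were called higher and 2.34% lower. Their part in the matrix differences was not tested.

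On day 12 limma called 0 of the 63 matrix genes, and 3 of them had an unadjusted p below 0.05. That is 4.76% of the matrix genes, while 0.0109% of all genes were called and 6.78% had an unadjusted p below 0.05. COL18A1 gave 7.84, 7.60, 7.61, 7.88 and 7.11 in pregnant and 7.55, 7.71, 7.88, 7.03 and 7.73 in cyclic heifers, so the groups overlapped throughout (difference 0.03, 95% interval -0.37 to 0.42). FAP gave 9.73, 9.96, 9.66, 9.70 and 9.27 in pregnant and 9.50, 9.42, 9.41, 9.27 and 9.22 in cyclic heifers. The difference of 0.30 pointed upward, opposite to the later days, and was not called (adjusted p = 0.765). The smallest p-values on day 12 belonged to ADAMTS4, an aggrecanase, at 0.50 (adjusted p = 0.633), and COL11A2, a minor fibrillar collagen chain, at -0.29 (adjusted p = 0.719).

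**Figure D3:**
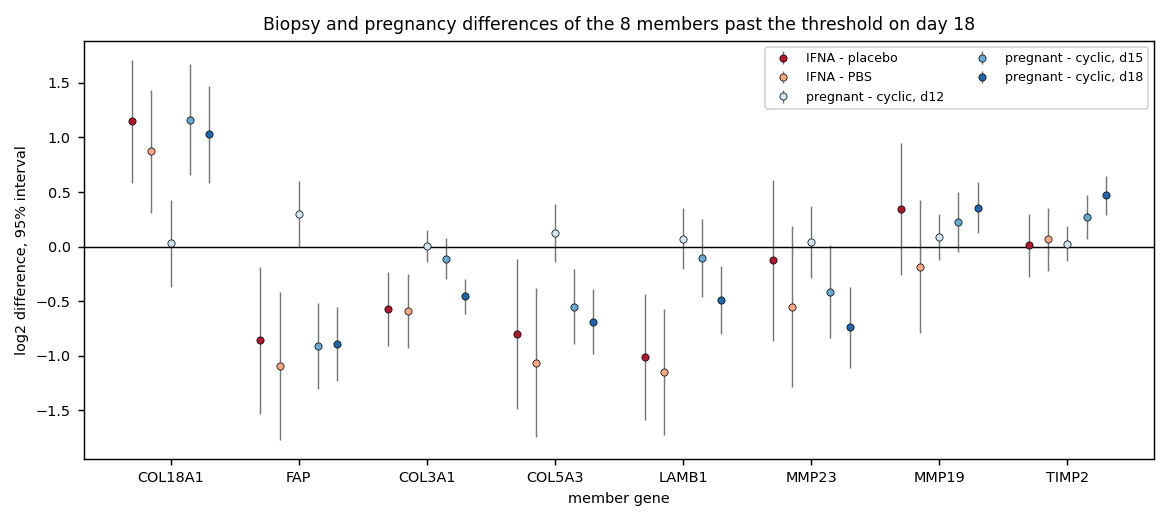
Log2 differences with 95% intervals from limma for the 8 matrix genes called on day 18, as IFNA minus placebo, IFNA minus PBS, and pregnant minus cyclic on days 12, 15 and 18. COL18A1 lies between 0.87 and 1.16 in every comparison but day 12 (0.03), and FAP between -1.09 and -0.86 in every comparison but day 12 (0.30).

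The change of the pregnancy difference between days was tested directly. FAP was called as changing, with its pregnancy difference on day 15 lower by 1.21 log2 units than on day 12 (SE 0.24, 95% interval -1.71 to -0.71, adjusted p = 0.00646). It was the single matrix gene of 63 called in that test, or 1.59%, where 2.53% of all genes were called. For COL18A1 the same contrast was 1.14 and missed the threshold (adjusted p = 0.0615). Between day 15 and day 18 the pregnancy differences of these 2 genes changed by -0.14 for COL18A1 and 0.02 for FAP, and neither was called. No matrix gene was called there, and 6 had an unadjusted p below 0.05 (9.52%), while 0.251% of all genes were called and 9.59% had an unadjusted p below 0.05. The smallest p-values in that test belonged to ADAMTS1, whose difference was higher by 0.68 on day 18 (adjusted p = 0.262), and COL3A1, whose difference was further below 0 on day 18 (-0.35, adjusted p = 0.315). The tests on days 15 and 12 and on days 18 and 15 share the day 15 arrays.

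In the biopsies, no matrix gene passed the threshold after IFNA. Limma called 0 of 63 against placebo, where 1.14% of all genes were called, and 0 of 63 against PBS, where 1.21% were called. At an unadjusted p below 0.05, 13 matrix genes differed from placebo (20.6%, against 10% of all genes) and 25 differed from PBS (39.7%, against 11.2% of all genes). Nearly all of these were on the lower side: 12 and 1 against placebo, and 24 and 1 against PBS, where 3.82% and 5.75% of all genes had an unadjusted p below 0.05 and a lower value with IFNA. The 2 comparisons share the 3 IFNA arrays. The median difference of the matrix genes was -0.15 against placebo and -0.29 against PBS, with medians of -0.01 and 0.01 over all genes.

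COL18A1 was the exception on the upper side. It gave 5.64, 6.13 and 6.57 in IFNA, 4.59, 5.17 and 5.14 in placebo and 5.00, 5.42 and 5.30 in PBS biopsies. All 3 IFNA values were above all 6 control values. The difference from placebo was 1.15 (SE 0.249, 2.21-fold, 95% interval 0.58 to 1.71) and had the smallest p of any matrix gene in that comparison, yet it missed the threshold (adjusted p = 0.1). Without IFNA heifer 1 it was 1.38 and called (adjusted p = 0.0355). The difference from PBS was 0.87 (adjusted p = 0.22).

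FAP gave 9.73, 8.57 and 9.67 in IFNA, 10.36, 10.19 and 10.00 in placebo and 10.61, 10.56 and 10.08 in PBS biopsies. The IFNA values were below all controls, with IFNA heifer 2 far lowest. The difference was -0.86 from placebo (SE 0.298, 95% interval -1.54 to -0.18, adjusted p = 0.413) and -1.09 from PBS (adjusted p = 0.197).

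All 9 fibrillar collagen genes had a lower mean in IFNA than in placebo biopsies, with a median difference of -0.42 and a range of -0.80 to -0.04, and all 9 a lower mean than in PBS biopsies, with a median of -0.59. COL3A1 gave 12.98, 12.56 and 13.15 in IFNA, 13.55, 13.46 and 13.40 in placebo and 13.49, 13.58 and 13.39 in PBS biopsies. The IFNA values were all below the controls, which were tightly grouped. The differences were -0.57 (SE 0.149, adjusted p = 0.207) and -0.59 (adjusted p = 0.166) from placebo and PBS. COL27A1, a fibrillar collagen with known roles in cartilage, gave 9.25, 8.93 and 9.54 in IFNA, 9.92, 9.83 and 9.73 in placebo and 10.01, 10.30 and 9.83 in PBS biopsies. Again there was no overlap, and the difference from PBS was -0.81 (SE 0.174, adjusted p = 0.0992). COL5A3 differed by -0.80 from placebo and -1.06 from PBS. Collagen I overlapped its controls in part: COL1A1 gave 11.52, 11.00 and 12.19 in IFNA, 12.45, 12.20 and 11.96 in placebo and 12.12, 12.63 and 12.21 in PBS biopsies, while COL1A2, which overlapped placebo but not PBS, differed by -0.42 and -0.60.

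Among the basement membrane genes, COL15A1, LAMB1 and LAMC1 behaved in the same way, but others did not. COL4A1 gave 11.63, 11.48 and 11.64 in IFNA, 12.08, 11.58 and 11.59 in placebo and 11.63, 11.98 and 12 in PBS biopsies. It overlapped both control groups, as did COL4A3, COL4A4 and LAMB3, and COL18A1 was on the upper side. COL15A1, collagen XV, gave 10.87, 10.37 and 10.88 in IFNA, 11.62, 11.29 and 11.21 in placebo and 11.38, 11.54 and 11.54 in PBS biopsies. The IFNA values were separate from both control groups. The difference was -0.67 from placebo (adjusted p = 0.176) and -0.78 from PBS (SE 0.166, 1.72-fold, adjusted p = 0.094), the smallest adjusted p against PBS. LAMB1 gave 9.59, 8.92 and 9.42 in IFNA, 10.79, 10.23 and 9.95 in placebo and 10.45, 10.75 and 10.17 in PBS biopsies. These were separate too, with differences of -1.01 (SE 0.255, adjusted p = 0.185) and -1.15 (adjusted p = 0.11). LAMC1 gave 10.83, 10.49 and 10.69 in IFNA, 11.25, 10.94 and 10.85 in placebo and 11.18, 11.23 and 11.11 in PBS biopsies. Its highest IFNA value was just below its lowest placebo value. LAMA4 and LAMB2 overlapped placebo but were below PBS. COL12A1, which binds to the surface of collagen I fibrils, had the lowest difference from placebo among the 63: it gave 8.42, 8.69 and 8.06 in IFNA, 10.28, 9.99 and 8.70 in placebo and 9.27, 9.69 and 9.75 in PBS biopsies. The placebo heifers were widely spread, and the difference of -1.27 had an SE of 0.372 (adjusted p = 0.287).

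**Figure D4:**
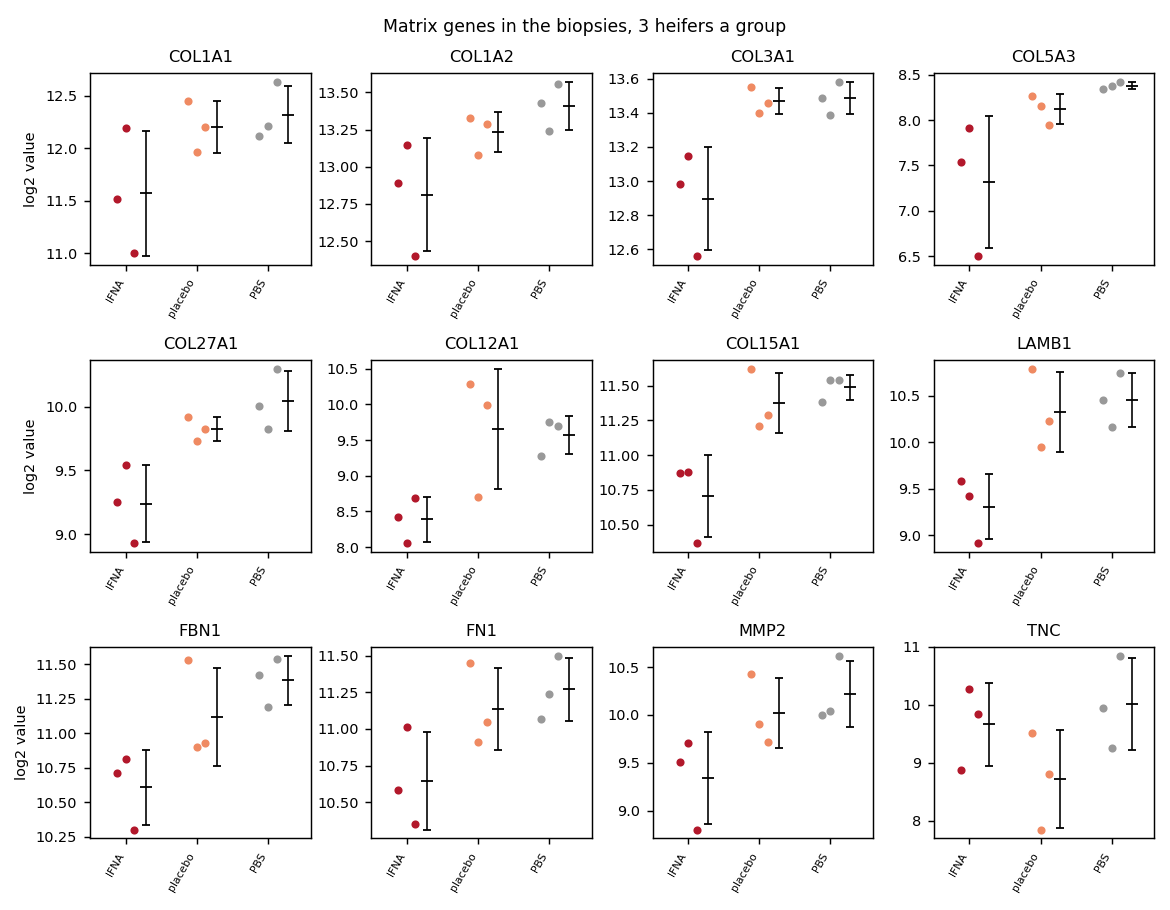
Log2 signals of 12 matrix genes in endometrial biopsies, with IFNA left of placebo and PBS; points are heifers and bars mean ± SD (n = 3 each). In COL3A1 the IFNA points lie from 12.56 to 13.15 and all control points from 13.39 to 13.58, while TNC ranges from 7.84 to 9.52 within placebo alone.

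Elastic fibre genes and glycoproteins were lower in mean against PBS as well: 6 of 6 elastic fibre genes (median -0.61) and 6 of 6 glycoproteins and proteoglycans (median -0.40). Against placebo 5 of 6 (median -0.16) and 4 of 6 (-0.27) were lower, and placebo itself was below PBS for 6 of 6 (-0.31) and 5 of 6 (-0.14). FBN1 gave 10.71, 10.30 and 10.81 in IFNA, 11.53, 10.93 and 10.90 in placebo and 11.42, 11.54 and 11.19 in PBS biopsies. It was thus lower with IFNA than in all controls, by 0.51 and 0.78 log2 units in mean, whereas on day 18 its pregnant values were above the cyclic ones. FN1 gave 10.58, 10.35 and 11.01 in IFNA, 11.45, 11.05 and 10.91 in placebo and 11.07, 11.50 and 11.24 in PBS biopsies. It overlapped placebo but not PBS, with differences of -0.49 and -0.62. LUM differed by -0.55 and -0.59, LOX by -0.36 and -0.50 and SPARC by -0.29 and -0.45, while DCN (0.02 and -0.13) and BGN (-0.25 and -0.25) lay closer to 0. TNC gave 8.87, 9.84 and 10.28 in IFNA, 9.52, 8.80 and 7.84 in placebo and 9.95, 10.85 and 9.26 in PBS biopsies. Its groups overlapped and its difference changed sign with the control, at 0.94 from placebo and -0.36 from PBS.

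The medians of the proteases and inhibitors were nearer to 0 in the biopsies. The 12 metalloproteinases with FAP had a median difference of -0.09 from placebo and -0.05 from PBS. The 7 ADAMTS genes, with the ADAMTS-like ADAMTSL2 among them, had -0.12 and -0.13, and the 4 TIMPs 0.10 and -0.13. Many metalloproteinases were dim, so their values near 0 say little. MMP1, MMP3, MMP9, MMP13, MMP14, MMP15, MMP16 and MMP20 had mean signals over all arrays of 3.40 to 5.48 (median of all probe sets 6.81). As with FAP above, the brighter MMP2, gelatinase A, was lower in mean. It gave 9.51, 8.80 and 9.71 in IFNA, 10.43, 9.72 and 9.91 in placebo and 10.00, 10.62 and 10.04 in PBS biopsies. The highest IFNA value was just below the lowest placebo value, and the differences were -0.68 (adjusted p = 0.548) and -0.88 (adjusted p = 0.302). MMP1 (-0.07 and -0.05), MMP9 (-0.10 and -0.05), MMP14 (0.02 and -0.03) and TIMP1 (0.19 and -0.14) were close to both controls.

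The number of matrix genes with lower biopsy values changed with single heifers. IFNA heifer 2 had the lowest of the 9 biopsy values for 29 of the 63 matrix genes, and PBS heifer 2 the highest for 22. Without IFNA heifer 2, 8 matrix genes were lower than placebo at an unadjusted p below 0.05 and 14 lower than PBS, with 2.5% and 3.29% of all genes. Without PBS heifer 2, 14 were lower than PBS (3.38% of all genes), and without placebo heifer 1, 5 were lower than placebo (3.11%). The counts rose without IFNA heifer 3, to 18 against placebo and 26 against PBS (4.17% and 5.82% of all genes). Against placebo they also rose, to 14, 15 and 16, without IFNA heifer 1, placebo heifer 2 and placebo heifer 3 (4.17%, 3.9% and 6.99%). Whichever heifer was left out, 41 to 51 of the 63 differences from placebo were below 0, and 49 to 56 of those from PBS. The median difference of the fibrillar collagens remained between -0.59 and -0.35 against placebo and between -0.72 and -0.42 against PBS whichever heifer was left out.

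Macrophage markers were also higher after IFNA, with 3 of 6 called against placebo (CSF1R, C1QB and C1QC, list median 1.33) and 2 of 6 against PBS (C1QB and C1QC, 0.97), at mean levels of 8.63 to 9.06 in IFNA, 7.53 to 8.09 in placebo and 7.84 to 8.20 in PBS biopsies. Endothelial markers were lower than PBS for 2 of 7 (PECAM1 and PLVAP, list median -0.49) and for 0 of 7 against placebo (median -0.09), at levels of 6.96 to 7.25 in IFNA, 7.20 to 7.49 in placebo and 7.61 to 7.70 in PBS biopsies. None of the 8 stromal markers (medians -0.04 and -0.17) and none of the 6 smooth muscle markers (-0.48 and -0.23) was called. None of the 10 epithelial markers was called either, with 7 above placebo (median 0.10) and 10 above PBS (0.32), at levels of 8.95 to 9.36 in IFNA, 8.75 to 9.39 in placebo and 8.43 to 8.95 in PBS biopsies. All 4 neutrophil markers were below both controls and uncalled (-0.59 and -1.15), at levels of 6.36 to 6.56 in IFNA, 6.70 to 7.60 in placebo and 7.57 to 7.62 in PBS biopsies. The stromal levels were 8.96 to 9.17 in IFNA, 8.97 to 9.21 in placebo and 9.27 to 9.37 in PBS biopsies. The part of these cell types in the biopsy values was not tested.

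Placebo and PBS biopsies, the background of the intrauterine treatment, did not differ for any matrix gene by limma: 0 of 63 were called, and 0% of all genes. At an unadjusted p below 0.05, 4 matrix genes were lower in placebo (6.35%, against 1.88% of all genes) and 0 were higher, with 3.12% of all genes in either direction. LAMA4, the endothelial laminin alpha 4 chain, gave 9.27, 9.23 and 8.81 in placebo and 9.58, 9.77 and 9.37 in PBS biopsies. FBLN5, an elastic fibre assembly protein, gave 8.66, 8.66 and 7.77 in placebo and 9.57, 9.42 and 8.70 in PBS biopsies. Both were lower in placebo, by 0.47 and 0.87 log2 units in mean, at an adjusted p of 0.999. TNC was lower in placebo by 1.30, at the same adjusted p. The median difference over the 63 genes was -0.12.

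The IFNA difference from placebo was set against the pregnancy difference in one limma fit of all 33 arrays. Limma called 0 of 63 matrix genes when compared with pregnancy on day 15, where 0.502% of all genes were called, and 0 of 63 with day 18, where 1.45% were called. At an unadjusted p below 0.05 there were 12 matrix genes for day 15 (19%, against 15.6% of all genes) and 8 for day 18 (12.7%, against 15.6%). For COL18A1 the IFNA difference minus the pregnancy difference was -0.02 on day 15 (95% interval -0.76 to 0.72) and 0.12 on day 18 (-0.57 to 0.81). For FAP it was 0.05 (-0.63 to 0.73) and 0.03 (-0.60 to 0.67). The estimates were close to 0 for both genes, but the intervals leave room for differences of more than 0.5 log2 units. FBN1 and FN1, which were lower in mean after IFNA and higher in mean in pregnancy, had the smallest p-values for day 15 at -0.94 (adjusted p = 0.157) and -0.88 (adjusted p = 0.131). For day 18 they were FBN1 at -1.003 (adjusted p = 0.0742) and TIMP2 at -0.46 (adjusted p = 0.111). FBN1 was called without placebo heifer 3 (-1.11, adjusted p = 0.0412) and TIMP2 without pregnant day 18 heifer 1 (-0.54, adjusted p = 0.0338).

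Between day 12 and day 15 the matrix genes changed widely, in step with the array as a whole. In cyclic heifers 35 of 63 were called, 12 higher and 23 lower on day 15 (55.6%, against 52.1% of all genes), and in pregnant heifers 33 of 63, 12 higher and 21 lower (52.4%, against 55.9%). The lower calls are 24.8% of all genes in cyclic and 26.6% in pregnant heifers, and the higher calls 27.3% and 29.4%. Day, horn part and normalisation set cannot be told apart here. Calls were therefore read mainly where they were the same in the jointly normalised values, in the values as deposited and in the mean over a gene's probe sets, and the few others named are marked as not kept. Calls were kept for 28 matrix genes in cyclic heifers (8 higher, 20 lower, while 31.2% of all genes kept a call) and for 24 in pregnant heifers (6 higher, 18 lower, while 36% did). The deposited day 15 set lies below the day 12 set as a whole, which favours lower calls among those kept, so their split by direction is not read.

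COL1A1 fell on day 15 in both conditions, to 11.51 ± 0.32 in pregnant heifers on day 15 (n = 3), against 13.04 ± 0.58 on day 12 (SD, n = 5), and to 11.52 ± 0.13 in cyclic heifers on day 15, against 12.98 ± 0.10 on day 12. The 2 days did not overlap in either condition. The differences were -1.52 and -1.46 (SE 0.226 each, adjusted p = 8.17e-06 and 1.66e-05), and the second COL1A1 probe set was also lower in both. COL1A2 fell by 0.69 and 0.59 and COL3A1 by 0.48 and 0.44 in pregnant and cyclic heifers. SPARC (-0.50 and -0.56), BGN (-0.31 and -0.61) and LOX (-0.33 and -0.44) also fell in both. In pregnant heifers the BGN call (adjusted p = 0.0497) was lost in 6 of the 8 fits that left out 1 heifer, and the LOX call without day 12 heifer 4 or day 15 heifer 2. COL6A1 fell by 0.62 and 0.43 and LOXL1 by 0.60 and 0.69, COL4A1 fell by 0.40 in cyclic heifers, COL5A3 fell by 0.75 in pregnant heifers, and MMP23 fell by 0.90 and 0.48. The MMP23 call in cyclic heifers was lost in 6 of 8 such fits (adjusted p up to 0.109). The COL4A1 call was lost without cyclic day 15 heifer 2 or 3, and the LOXL1 calls without day 15 heifer 3 of either condition. Of the 2 other COL6A1 probe sets, 1 was not called in each condition (-0.04 in pregnant and -0.07 in cyclic heifers). The other COL4A1 probe set was not called in cyclic heifers (-0.38).

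The inhibitor TIMP3 fell to 8.35 ± 0.20 in pregnant heifers on day 15, against 9.36 ± 0.24 on day 12, and to 8.54 ± 0.40 in cyclic heifers on day 15, against 9.31 ± 0.38 on day 12. The differences were -1.01 (adjusted p = 0.000102) and -0.77 (adjusted p = 0.00159). ADAMTS4 fell by 1.10 and 0.68, and ADAMTS2, the procollagen N-proteinase, by 1.00 and 0.73, in pregnant and cyclic heifers, and the ADAMTS4 call in cyclic heifers was lost without day 15 heifer 3. ADAMTSL2 (-0.40 and -0.44) and MMP2 (-0.48 and -0.31) were lower in pregnant and cyclic heifers. LAMA4 (-0.31) was lower in pregnant heifers, and MMP14 (-0.24), MMP19 (-0.41) and TIMP1 (-0.39) in cyclic heifers. Leaving out 1 heifer ended the call in 5 of 8 fits for MMP2 in cyclic heifers. It did so in 4 for MMP14, 3 for TIMP1 and 3 for LAMA4. COL4A4, a chain of the specialised collagen IV network, had the lowest differences of the 63, -1.73 and -2.04. However, its second probe set was not called in either (0.18 and 0.14), and the means over both were -0.77 and -0.95. ADAMTS2 and MMP14 were dim, with mean signals over all arrays of 4.70 and 5.48, so their falls are less certain. ADAMTSL2 (5.66) and COL4A4 (5.93) also lay below the median of all probe sets (6.81).

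Markers of other cells changed between these days as well, read in the jointly normalised values alone. Of all genes, 29.4% were called higher and 26.6% lower in pregnant heifers, and 27.3% higher and 24.8% lower in cyclic heifers. Of 6 smooth muscle markers 5 were lower on day 15 in pregnant heifers (list median -0.997) and 2 in cyclic heifers (-0.61). Stromal markers were lower for 4 of 8 in each condition (medians -0.28 and -0.27), with PDGFRA higher in pregnant heifers, and endothelial markers for 3 of 7 and 1 of 7 (-0.43 and -0.14). Of 10 epithelial markers 3 were higher and 3 lower in pregnant heifers and 4 higher and 1 lower in cyclic heifers, and of 4 neutrophil markers 4 and 3 were higher (0.89 and 0.79). Of 6 macrophage markers 3 were higher in pregnant heifers, and 1 was higher and 1 lower in cyclic heifers. The GAPDH gap also differed, at -0.11 and -0.08 in pregnant and cyclic tissue on day 15, against 0.46 and 0.39 on day 12. The part of these cell types and of RNA integrity in the matrix differences was not tested.

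LAMB3, the beta chain of an epithelial laminin, rose to 7.59 ± 0.03 in pregnant heifers on day 15, against 6.04 ± 0.36 on day 12, and to 7.64 ± 0.06 in cyclic heifers on day 15, against 6.21 ± 0.24 on day 12. It did so by 1.55 and 1.43 log2 units (adjusted p = 2.36e-07 and 8.96e-07). MMP16, a membrane-type metalloproteinase, was at 6.00 ± 0.10 in pregnant heifers on day 15, against 4.74 ± 0.03 on day 12, and at 5.76 ± 0.26 in cyclic heifers on day 15, against 4.76 ± 0.04 on day 12. Its differences of 1.26 and 1.00 were called, as were both other MMP16 probe sets, and the means over all 3 were 0.61 and 0.55. MMP3, stromelysin 1 (0.71 and 0.75), ADAMTS8 (0.75 and 0.73) and COL9A1 (0.62 and 0.69) were called higher in both conditions. All were dim, with mean signals over all arrays of 4.30, 4.09 and 3.23 (median of all probe sets 6.81), as was MMP16 (4.96). Rises at such levels are less certain. In pregnant heifers the other MMP3 probe sets (-0.0051 and 0.10) and the other COL9A1 probe set (-0.04) were not called, and the means over a gene's probe sets were 0.27 and 0.31 for MMP3 and 0.29 and 0.52 for COL9A1. The collagen chains COL17A1, COL4A3 and COL2A1 were also called higher in both, but another probe set of each was called lower in cyclic heifers, as were those of COL4A3 (-0.68) and COL2A1 (-0.94) in pregnant heifers. COL4A3 and COL2A1 kept their call in neither condition, and COL17A1 kept it in pregnant heifers alone. LOXL4 was higher by 0.92 and 0.95, and this call was kept under all scalings in cyclic heifers and not in pregnant ones. FN1 was higher by 0.60 in pregnant heifers, a call not kept in the values as deposited (0.33, adjusted p = 0.0641). MMP20, also dim (mean signal 3.91), was higher by 0.68 in cyclic heifers, a call lost without cyclic day 15 heifer 2.

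For COL18A1, FAP and ADAMTS1 the day differences were called in 1 direction in 1 condition alone or in opposite directions. They were not the only ones: COL5A3 and LAMA4, among others, were called in pregnant heifers alone, and MMP19 and TIMP1 in cyclic heifers alone. COL18A1 fell by 0.98 in cyclic heifers (adjusted p = 0.000741) and differed by 0.15 in pregnant heifers (adjusted p = 0.574). FAP fell by 0.67 in pregnant heifers (adjusted p = 0.00215), while in cyclic heifers it was higher by 0.51 on day 15 in the jointly normalised values, a call not kept in the values as deposited (0.23, adjusted p = 0.264) or without cyclic day 15 heifer 1. ADAMTS1 rose by 0.72 in cyclic heifers (adjusted p = 0.000368) and differed by -0.08 in pregnant heifers (adjusted p = 0.658). The difference between the conditions was tested above, and was called for FAP alone among the 63.

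**Figure D5:**
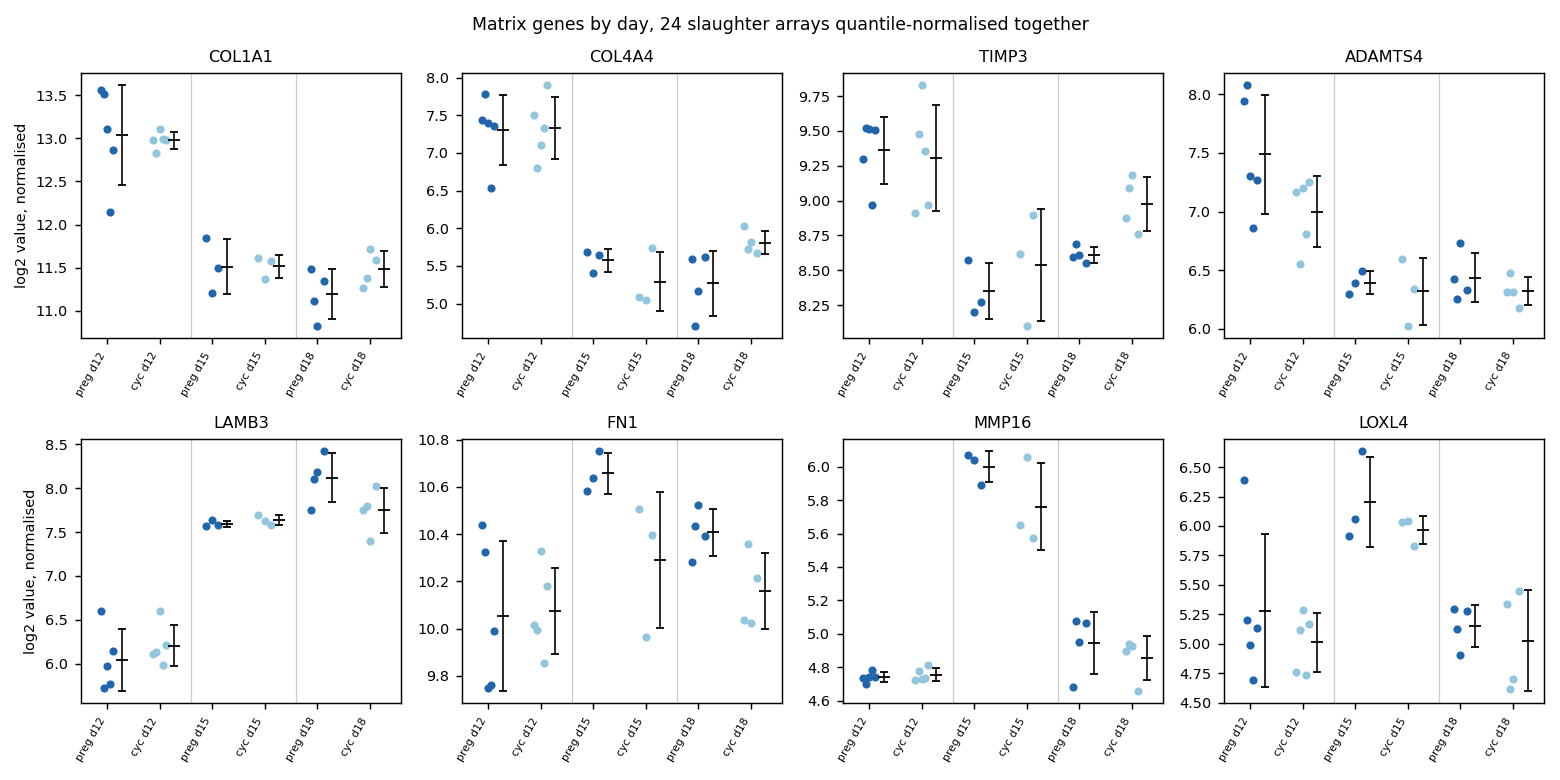
Log2 signals after joint quantile normalisation of the 24 slaughter arrays for 8 matrix genes on days 12, 15 and 18, with pregnant left of cyclic; points are heifers and bars mean ± SD. COL1A1 averages 13.04 and 12.98 on day 12 and 11.51 and 11.52 on day 15 in pregnant and cyclic heifers, and MMP16 averages 4.74 and 4.76 on day 12 and 6.00 and 5.76 on day 15; day 18 levels depend on the scaling.

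Between day 15 and day 18 most calls turned on the scaling. With joint normalisation, 18 matrix genes were called in cyclic heifers, 6 higher and 12 lower on day 18 (28.6%, against 38.6% of all genes), and 19 in pregnant heifers, 2 higher and 17 lower (30.2%, against 44.6%). In the values as deposited, 45 and 35 were called, all higher, where 85.2% and 84.2% of all genes were called higher. Calls that were the same under all 3 scalings numbered 5 in cyclic heifers (COL11A2 0.43, COL5A3 0.50, LOX 0.49, MMP15 0.31 and MMP23 0.59, all higher on day 18, with 19.4% of all genes keeping a call). In pregnant heifers they numbered 2 (LAMB3 0.53 and LUM 0.43, both higher, with 22.7% of all genes). As the deposited day 18 set lies above the day 15 set for most genes, a lower call could hardly be kept, and the direction of these calls is not read. Leaving out 1 heifer ended the call in 4 fits for COL11A2, 4 for MMP15, 2 for MMP23, 1 for COL5A3 and 0 for LOX, and in 5 for LUM and 3 for LAMB3. The calls that were not kept were lower on day 18 for 17 genes in pregnant heifers (ADAMTS8, COL17A1, COL18A1, COL26A1, COL2A1, COL3A1, COL4A3, COL6A2, LAMB1, LOXL4, MMP1, MMP14, MMP16, MMP2, MMP3, SPARC and TIMP4, from -1.06 to -0.26). In cyclic heifers they were lower for 12 (ADAMTS1, ADAMTS8, COL18A1, COL2A1, COL4A3, COL6A2, LOXL4, MMP1, MMP14, MMP16, MMP2 and TIMP2, from -0.94 to -0.33) and higher for ADAMTS5. MMP16 averaged 4.94 in pregnant and 4.85 in cyclic heifers on day 18 after joint normalisation, and its fall since day 15 was not kept in the deposited values.

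Genes outside the set whose 6 slaughter group means followed COL18A1 most closely were SH3GLB1 (Pearson's r 0.99), INKA1 (0.98), NDUFA12 (0.98), BCAP31 (0.98) and EMC3 (0.97). For FAP they were SFPQ (0.99), RAD50 (0.98), PAFAH1B1 (0.98), KLHL24 (0.98) and TMEM135 (0.97). Each r is over 6 group means that share arrays and normalisation, and is a description of these means. The genes were picked for the highest r among all others, so high values follow from the choice.

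Other genes of matrix biology were read from 7 lists, whose day 18 counts stand beside the 12.6% of all genes called higher and 10.4% called lower. On day 18, 4 of 7 plasminogen system genes rose in pregnant heifers and 0 fell: PLAUR, the urokinase receptor, by 0.91 (adjusted p = 2.9e-05), PLAU, urokinase, by 0.62, the protease inhibitor A2M by 0.69 and PLAT, tissue plasminogen activator, by 0.27. Of 13 integrin genes 5 rose (ITGA3, ITGA4, ITGA5, ITGA10 and ITGB6) and ITGA7, a laminin receptor subunit, fell by 0.72 (adjusted p = 0.000223). Of 31 other proteoglycans and matricellular genes 3 rose and 8 fell. FMOD, fibromodulin, averaged 9.42 ± 0.18 in pregnant and 8.21 ± 0.35 in cyclic heifers (SD, n = 4 each, difference 1.21, adjusted p = 1.35e-05), and SPP1, osteopontin, rose by 1.93. PRELP, which ties collagen to basement membranes, averaged 7.92 ± 0.38 in pregnant and 9.01 ± 0.07 in cyclic heifers (difference -1.09, adjusted p = 7.18e-06). POSTN, periostin, fell by 1.13, TNXB, tenascin XB, by 0.85, and the basement membrane genes NID1 and HSPG2 by 0.66 and 0.40.

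In the collagen processing list 3 of 15 fell on day 18 and 0 rose, on the same background. CRTAP, part of the complex that modifies collagen prolines, averaged 7.97 ± 0.15 in pregnant and 8.84 ± 0.19 in cyclic heifers (difference -0.87, adjusted p = 2.78e-05), and P4HB and PLOD1 fell by 0.20 and 0.28. The remaining lists had 1 of 11 ADAM genes higher (ADAM9, 0.53), 1 of 8 hyaluronan genes higher (TNFAIP6, 1.01) and 2 of 12 TGF-beta genes lower (TGFBR1, -0.66, and INHA, -0.30). On day 15, ITGB6 (0.68) and PCOLCE2, an enhancer of procollagen cleavage (0.88), were higher and CRTAP (-0.53) and PLOD1 (-0.24) lower in pregnant heifers. In the biopsies 0 genes of these lists were called against placebo, and against PBS ADAM12 (-0.59, adjusted p = 0.0408) and PRELP (-1.18, adjusted p = 0.0364) were lower after IFNA.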

How the data were processed

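The authors deposited log2 expression values per probe set, summarised with RMA in the affy package per the submitters' processing notes, and the scanner files were not used here. Of 24128 probe sets, 112 controls were left out, and 13292 of the other 24016 carried a single gene symbol in the platform annotation, 13263 of them updated through the gene identifier. Biopsy and pregnancy comparisons used the deposited log2 values, because each normalisation set holds its own controls, and day comparisons used quantile normalisation of the 24 slaughter arrays together. Tests were limma 3.58.1 (R 4.3.3), lmFit and eBayes, two-sided, with Benjamini-Hochberg adjustment over 24016 probe sets and a threshold of 0.05. Separate fits held the 9 biopsy arrays, the 24 slaughter arrays and all 33 arrays. The fit was checked on simulated data. Each array is a separate heifer, so p-values measure the spread between heifers, and the number of arrays per group, 3 to 5, limits the precision.

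The text names all matrix genes called in a comparison where these are 20 or fewer, otherwise the 10 largest rises and falls, the 2 with the smallest p where none was called, and a list of well-known matrix genes whatever their values; other genes of day 15 against day 12 were described where they kept their call. The matrix genes, roles, marker lists and rules were chosen with earlier results of these data known. The replicate numbers did not pair the heifers: correlations of deviations between same-numbered arrays lay between -0.337 and 0.368, and in no comparison were all above 0.1. Alternatives were joint normalisation, means over probe sets, a filter on dim probe sets, fits of the compared groups alone, the replicate number as a block, GAPDH integrity as a covariate, and each heifer left out.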

Additional observations from a re-analysis of the deposited data

Results flagged for a closer look

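In 52 named matrix genes, 208 sets of values from groups of 4 or 5 heifers were examined for 1 heifer apart from the rest. The gap was judged against the range of the group, so a small gap could count. The search found 11, close to the share of about 1 in 20 that chance gives. On day 12, pregnant heifer 5 was lowest for ADAMTS1 at 10.51 (others 10.96 to 11.05) and for MMP23 at 9.22 (others 9.71 to 9.83), and pregnant heifer 1 was lowest for MMP15 at 3.85 (others 4.34 to 4.53). Cyclic day 12 heifer 5 was lowest for ADAMTS1 at 10.5 (others 10.69 to 10.76), and cyclic heifer 3 was highest for LUM at 11.56 (others 10.66 to 10.82). Cyclic day 12 heifer 2 was highest for COL15A1 at 11.43 (others 10.67 to 10.89) and for MMP20 at 3.68 (others 3.27 to 3.38). On day 18, pregnant heifer 1 was highest for COL3A1 at 13.23 (others 12.94 to 12.96), pregnant heifer 3 for MMP2 at 9.82 (others 9.69 to 9.71) and pregnant heifer 4 for COL11A2 at 7.19 (others 7.07 to 7.08). Cyclic day 18 heifer 1 was lowest for COL5A3 at 8.64 (others 8.97 to 8.98).

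The pregnancy difference of FAP itself differed between days, at -1.21 log2 units for day 15 minus day 12 (limma, adjusted p = 0.00646), and all fits that left out 1 heifer kept this call with values from -1.36 to -0.98.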

How the results depend on the processing

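The number of matrix genes called (of 63) moved by over 1.5 times in these settings. With the replicate number as a block, 1 was called for IFNA against placebo (COL18A1, adjusted p = 0.0231) and 2 for the pregnancy difference of day 15 minus day 12; no other count moved by over 1.5 times with the block, with 3 called on day 15 and 10 on day 18. Joint quantile normalisation also gave 2 for day 15 minus day 12. With only probe sets above the median level of the arrays in the fit tested, 4 were called on day 15 and 3 for day 15 minus day 12. In cyclic heifers this filter gave 18 for day 15 against 12 and 7 for day 18 against 15. In pregnant heifers it gave 18 for day 15 against 12 and 9 for day 18 against 15. Fewer matrix genes were tested under this filter. With the 2 groups alone, 1 was called on day 15. The deposited values gave 45 calls in cyclic and 35 in pregnant heifers for day 18 against day 15.

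Leaving out 1 heifer gave 0 to 1 calls for IFNA against placebo, 1 to 3 for pregnancy on day 15, 7 to 11 on day 18, 1 to 2 for day 15 minus day 12, and 0 to 1 for IFNA minus pregnancy on day 18. It gave 27 to 33 calls for pregnant day 15 against 12, 29 to 34 for cyclic day 15 against 12, 14 to 18 for pregnant day 18 against 15 and 13 to 17 for cyclic day 18 against 15. In the other comparisons it gave 0. 

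Directions turned only in the day comparisons. The deposited day 18 set lies above the day 15 set (medians 7.25 and 6.50), so the turns in the deposited values between these days follow a shift of most genes and say nothing about single matrix genes. In the deposited values for pregnant heifers on day 18 against 15, COL17A1 was 0.49, COL18A1 0.0108, COL26A1 0.18, COL2A1 0.20, COL6A2 0.22, LAMB1 0.16, MMP14 0.39, MMP3 0.53, SPARC 0.0692 and TIMP4 0.17. For cyclic heifers there, ADAMTS1 was 0.0117, COL18A1 0.15, COL2A1 0.36, COL4A3 0.20, COL6A2 0.37, MMP14 0.45, MMP16 0.0067 and MMP2 0.0033, and for pregnant day 15 against 12 COL6A2 was -0.0947. As means over probe sets, COL4A3 was -0.0395 and COL6A2 -0.36 in pregnant and COL2A1 -0.0648 and COL4A3 -0.16 in cyclic heifers for day 15 against 12, and COL6A2 was 0.21 in cyclic heifers for day 18 against 15. Apart from the scalings themselves, the cause was not tested. Dim probe sets limit the low-signal genes, 26 of which lay below the median level.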
